A study of Mus musculus with 84 samples.

Results

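Bile acids are made from cholesterol in hepatocytes, and 10 genes of their synthesis, conjugation, transport and sensing were followed here among the 48794 genes listed for each library. The genes were taken by name, with earlier results of these data known, and each was matched by its Ensembl identifier. They are Cyp7a1, Cyp8b1, Cyp27a1 and Cyp7b1 of synthesis, Slc27a5 and Baat of conjugation, the carriers Slc10a1 and Abcb11, and the nuclear receptors Nr1h4 and Nr0b2. All 10 passed the filter on low values in liver. Expression was measured by RNA sequencing of liver and of epididymal fat (eWAT) from male C57BL/6J mice with diet-induced obesity, 22 weeks old at the start and fed a diet with 60% fat, also in the vehicle group. In each tissue 7 groups of 6 mice had received a daily subcutaneous injection for 30 days. Besides vehicle there were 4 doses of BI456906, a dual agonist of the GLP-1 receptor (GLP-1R) and the glucagon receptor (GCGR), from 3 through 10 and 20 up to 30 nmol/kg. Semaglutide, an agonist of the GLP-1R, was given at 20 nmol/kg and at 100 nmol/kg. The mice had free access to food, and the hour at which each tissue was taken is not given in the sources used here.

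The classical route of synthesis starts in the endoplasmic reticulum with CYP7A1, which sets the rate of the pathway, and CYP8B1 then directs intermediates to cholic acid rather than to the chenodeoxycholic and muricholic acids. The alternative route starts in mitochondria with CYP27A1, whose oxysterols are hydroxylated by CYP7B1. SLC27A5 and BAAT attach bile acids to coenzyme A and then to taurine or glycine, ABCB11 (BSEP) exports the conjugates into the canaliculus, and SLC10A1 (NTCP) takes them back up from the blood. Bile acids bind NR1H4 (FXR), which is known to induce Abcb11 and Nr0b2, and NR0B2 (SHP) is known to repress Cyp7a1 and Cyp8b1. Cyp7a1 is also known to vary with feeding and over the day.

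The recovered depth was 21676902 to 53869104 reads per liver library, and each of the 10 genes held at least 142 reads in every liver library. Levels are given in TPM, a unit of transcript abundance that is corrected for transcript length and scaled to the same total in every library, and differences as log2 fold changes fitted with limma/voom after TMM scaling, with their standard error (SE). A gene rose or fell, or passed, where the p adjusted over the 15964 genes tested in that comparison, the false discovery rate (FDR), was at most 0.05. In bulk tissue, fewer cells of a type and less RNA per cell cannot be told apart. The summed level of 5 hepatocyte markers (Alb, Apoa1, Ttr, Tat and Serpina1c) had a median of 70409.5 TPM with vehicle (range 67322.9 to 81665 TPM) and 94990.9 TPM with BI456906 30 nmol/kg (range 86886.6 to 102188 TPM), and 4 of the 5 rose and 1 fell, as they did with semaglutide 100 nmol/kg. For 5 bile duct markers (Krt19, Krt7, Epcam, Sox9 and Spp1) the medians were 82.4 and 21.9 TPM, and 3 of the 5 fell, against 2 with semaglutide 100 nmol/kg. Spp1 made up most of that sum, with means of 75.2 and 21.4 TPM. The means were 0.68 and 0.523 TPM for Krt7 and 2.41 and 1.44 TPM for Epcam. For 4 stellate cell markers (Lrat, Reln, Des and Dcn) the medians were 208 and 148 TPM, and 3 of the 4 fell with each compound. Of 4 adipocyte markers, Adipoq, Plin1 and Lep did not pass the filter, with means of 0.257, 0.187 and 0.0633 TPM with vehicle. Cidec had a mean of 114 TPM there, so in liver it is not read here as a sign of adipocytes. Cidec fell with BI456906 30 nmol/kg and semaglutide 100 nmol/kg, with log2 fold changes of -1.52 and -1.57. Of all genes tested, 58.8% passed at BI456906 30 nmol/kg. The part of these markers in the results was not tested. At that dose replicate 70 held the lowest Cyp8b1 and Cyp27a1 levels, and no call against vehicle at 30 nmol/kg was lost without it.

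Promoter sequence of 300 bases, from 250 bases before the start to 50 from it on, was found for 6 of the 10 genes in RefSeq (GRCm38.p6), namely Cyp8b1, Cyp27a1, Slc10a1, Abcb11, Nr1h4 and Nr0b2. Those of Cyp8b1, Abcb11 and Nr0b2 are shown because they hold a letter match to a motif of the receptors that control this pathway. The 250 bases before the start are printed. Capitals mark the matches, each sequence is written 5′ to 3′ on the strand of the gene, and positions count the start as 0.
Cyp8b1 (chr9:121916306-121916555, minus strand): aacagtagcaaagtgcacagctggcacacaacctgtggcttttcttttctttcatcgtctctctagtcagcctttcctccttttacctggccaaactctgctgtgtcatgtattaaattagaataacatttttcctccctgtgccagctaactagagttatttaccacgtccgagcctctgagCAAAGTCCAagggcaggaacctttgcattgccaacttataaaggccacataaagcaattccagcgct
Abcb11 (chr2:69342617-69342866, minus strand): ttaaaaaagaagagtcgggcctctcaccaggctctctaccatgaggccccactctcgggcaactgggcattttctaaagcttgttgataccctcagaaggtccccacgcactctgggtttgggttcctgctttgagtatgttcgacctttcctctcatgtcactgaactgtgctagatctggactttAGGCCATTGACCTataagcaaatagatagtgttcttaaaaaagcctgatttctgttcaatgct
Nr0b2 (chr4:133553126-133553375, plus strand): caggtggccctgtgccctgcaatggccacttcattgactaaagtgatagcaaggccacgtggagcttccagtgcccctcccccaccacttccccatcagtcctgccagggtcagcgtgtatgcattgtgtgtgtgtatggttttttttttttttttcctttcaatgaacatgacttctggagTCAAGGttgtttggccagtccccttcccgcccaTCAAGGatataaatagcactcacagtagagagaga

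Both strands were searched with 5 motifs. The Cyp8b1 promoter held CAAAGTCCA, a core bound by HNF4, at positions -67 to -59, as did 0.475% of the 32851 promoters of this length. The Abcb11 promoter held AGGCCATTGACCT at positions -63 to -51, a match to the inverted repeat AGGNCANTGNCCT bound by FXR with RXR, which was found in 0.0883% of promoters. The Nr0b2 promoter held TCAAGG, the half-site of the liver receptor homologue encoded by Nr5a2, at positions -68 to -63 and -35 to -30, a letter string present in 14.4% of promoters. TGACGTCA, the element bound by CREB and present in 1.79% of promoters, and TTATGTAA, the D-box of the clock output factors, present in 0.938%, were in none of the 6. These are matches of letters and do not show binding.

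In liver BI456906 30 nmol/kg came with a fall of 6 of the 10 genes and a rise of none, and with neither dose of semaglutide did any fall. Cyp7a1 and Cyp8b1 moved most, and Baat, Slc10a1, Nr1h4 and Slc27a5 fell by less. The 4 that did not pass against vehicle were Cyp27a1, Cyp7b1, Abcb11 and Nr0b2. At this dose 58.8% of all genes tested passed, in either direction, so the count of 6 of 10 is near the background, and with a log2 fold change of at least 1 in size 2 of the 10 passed (Cyp7a1 and Cyp8b1) against 12.9% of all genes. The median log2 fold change was -0.28 over the 10 genes and -0.03 over all genes tested.

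**Figure D1:**
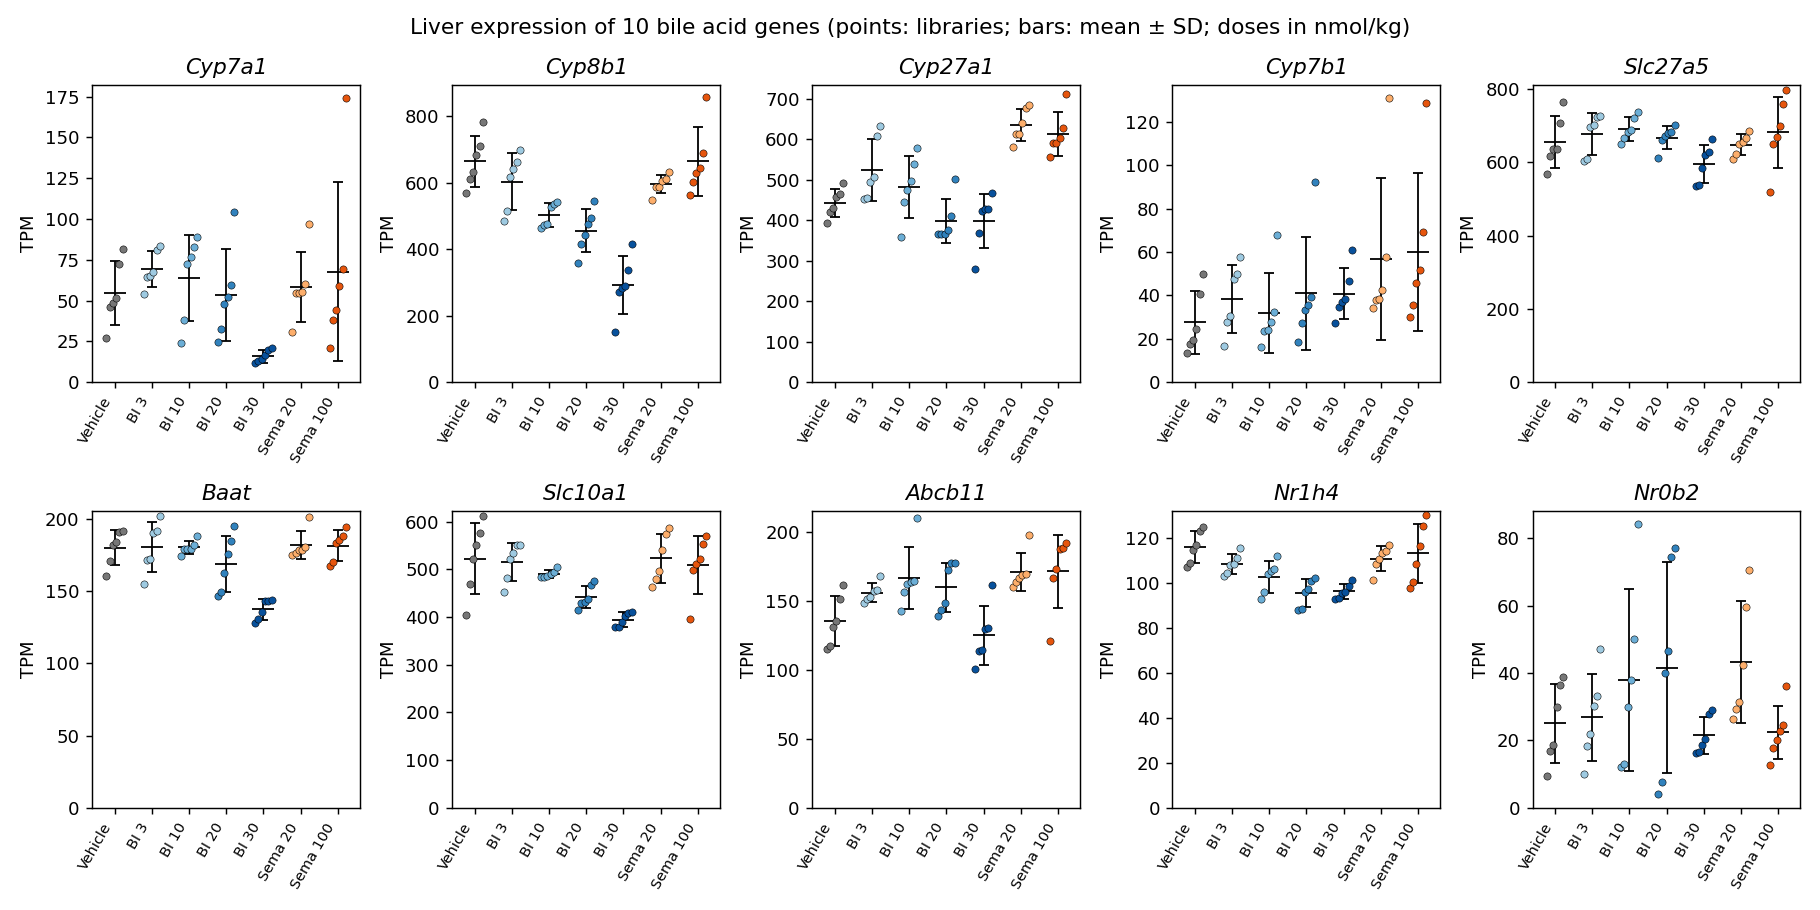
Expression of the 10 genes in 42 liver libraries. Each point is a library, the vertical axis of each panel is TPM from 0, the horizontal axis is the group (BI is BI456906, Sema is semaglutide, doses in nmol/kg), and bars are mean ± SD of 6 mice. The 6 Cyp7a1 values at BI456906 30 nmol/kg lie between 11.4 and 21.01 TPM, below every other liver library, the next of which has 21.2 TPM.

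Cyp7a1, at 4:6265612-6275633 (GRCm38, minus strand), encodes the first and rate-setting enzyme of the classical route. With vehicle its levels ran from 27.2 to 81.6 TPM (median 50.0). With BI456906 they were 54.2 to 83.5 TPM (median 66.3) at 3 nmol/kg and 23.9 to 88.9 TPM (median 74.5) at 10 nmol/kg. At 20 nmol/kg they were 24.5 to 104 TPM (median 50.1). At 30 nmol/kg all 6 mice were low and close together, and no value reached that of any mouse of another group, although semaglutide 100 nmol/kg replicate 81 came close at 21.2 TPM. The levels there were 11.4 to 21.01 TPM (median 15.3), and the mean was 0.292 of that with vehicle. Against vehicle the fitted log2 fold change at this dose was -1.88 ± 0.34 (SE, adjusted p = 1.33e-05). It was -0.27 ± 0.35 (SE, adjusted p = 0.557) at 20 nmol/kg, which did not pass.

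Between the 20 and the 30 nmol/kg doses Cyp7a1 fell, with a fitted log2 change of -1.61 ± 0.34 (SE, adjusted p = 0.0106), in a comparison in which 5.86% of all genes passed. That fall was lost without replicate 63 of the 20 nmol/kg group, the mouse with the highest value of its group at 104 TPM (log2 fold change -1.37, adjusted p = 0.0555). Whether the last step was steeper than the dose course before it was tested as the change from 20 to 30 nmol/kg minus what a straight line from vehicle to 20 nmol/kg would add over 10 nmol/kg. For Cyp7a1 this difference was -1.48 ± 0.46 (SE, adjusted p = 0.0916) with limma/voom and did not pass. None of the 10 genes passed this test with limma/voom, against 0.783% of all genes, while 4 of them had an unadjusted p under 0.05. With DESeq2 3 of the 10 passed, Cyp7a1 (-1.65, adjusted p = 0.041), Abcb11 (-0.49, adjusted p = 0.0391) and Nr1h4 (0.22, adjusted p = 0.0458), and the same 3 passed when libraries were weighted by quality. With edgeR's quasi-likelihood test none passed. The share of all genes that passed this test was counted for limma/voom alone. The genes were chosen with earlier results of these data known, so the passes under other settings are no independent support.

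Semaglutide left Cyp7a1 levels spread widely around those of vehicle. They were 30.4 to 96.7 TPM (median 54.95) at 20 nmol/kg. At 100 nmol/kg they were 21.2 to 174 TPM (median 51.5), and replicate 84 alone made up the top of that range. The log2 fold changes against vehicle were -0.01 (95% interval -0.73 to 0.70, adjusted p = 0.982) and -0.03 (95% interval -0.74 to 0.68, adjusted p = 0.956), so that changes of up to about 0.7 in size in either direction lay within the intervals. Cyp7a1 was lower with BI456906 30 nmol/kg than with semaglutide 100 nmol/kg, with a log2 difference of -1.85 ± 0.34 (SE, adjusted p = 0.00037).

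Cyp8b1, at 9:121914356-121916305 (GRCm38, minus strand), encodes the sterol hydroxylase of cholic acid synthesis and was with Slc27a5 among the most abundant of the 10 genes. Its levels were 570.0 to 782 TPM (median 658) with vehicle and 485 to 699.6 TPM (median 630.3) at 3 nmol/kg of BI456906. They were 465 to 542 TPM (median 503) at 10 nmol/kg, 359 to 545 TPM (median 459) at 20 nmol/kg and 151 to 416 TPM (median 287) at 30 nmol/kg. From 10 nmol/kg upward every mouse was below every vehicle mouse, and at 30 nmol/kg replicate 70 was the lowest. The log2 fold changes against vehicle were -0.19 (adjusted p = 0.392), -0.51 (adjusted p = 0.00464), -0.66 (adjusted p = 0.000257) and -1.32 (adjusted p = 5.95e-10) at the 4 doses in order, so that Cyp8b1 fell from 10 nmol/kg upward. Without replicate 70 the last value was -1.13, and it still passed. Cyp8b1 also fell from 20 to 30 nmol/kg, with a fitted log2 change of -0.67 ± 0.14 (SE, adjusted p = 0.0106), a call that was lost when these 2 groups were fitted alone (adjusted p = 0.0625).

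With semaglutide the 12 Cyp8b1 values lay between 549 and 859 TPM, and the log2 fold changes against vehicle were -0.25 (95% interval -0.54 to 0.04, adjusted p = 0.16) at 20 nmol/kg and -0.08 (95% interval -0.37 to 0.21, adjusted p = 0.665) at 100 nmol/kg. At the same nominal dose of 20 nmol/kg the 6 BI456906 values were below the 6 semaglutide values. The fitted difference of -0.41 ± 0.14 (SE, adjusted p = 0.126) did not pass over all genes, and it passed when the 2 groups were fitted alone (adjusted p = 0.0202) and with quality weights (adjusted p = 0.0459).

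As a slope over dose from vehicle to 30 nmol/kg, 7 of the 10 genes fell with BI456906 and none rose, where 58.9% of all genes tested had a slope that passed in either direction. Per 10 nmol/kg the log2 slope was -0.62 ± 0.10 (SE, adjusted p = 1.22e-06) for Cyp7a1 and -0.40 ± 0.04 (SE, adjusted p = 1.18e-10) for Cyp8b1. The other 5 slopes lay between -0.16 and -0.07 per 10 nmol/kg, those of Slc10a1, Baat, Cyp27a1, Nr1h4 and Slc27a5 in order of size. The slope of Slc27a5 was lost with limma on log2(TPM + 1) (-0.046, adjusted p = 0.058) and on log2(TPM + 0.1). Abcb11, Cyp7b1 and Nr0b2 had slopes that did not pass. Measured over the 4 doses without vehicle, Abcb11 fell by 0.10 per 10 nmol/kg (adjusted p = 0.0281).

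**Figure D2:**
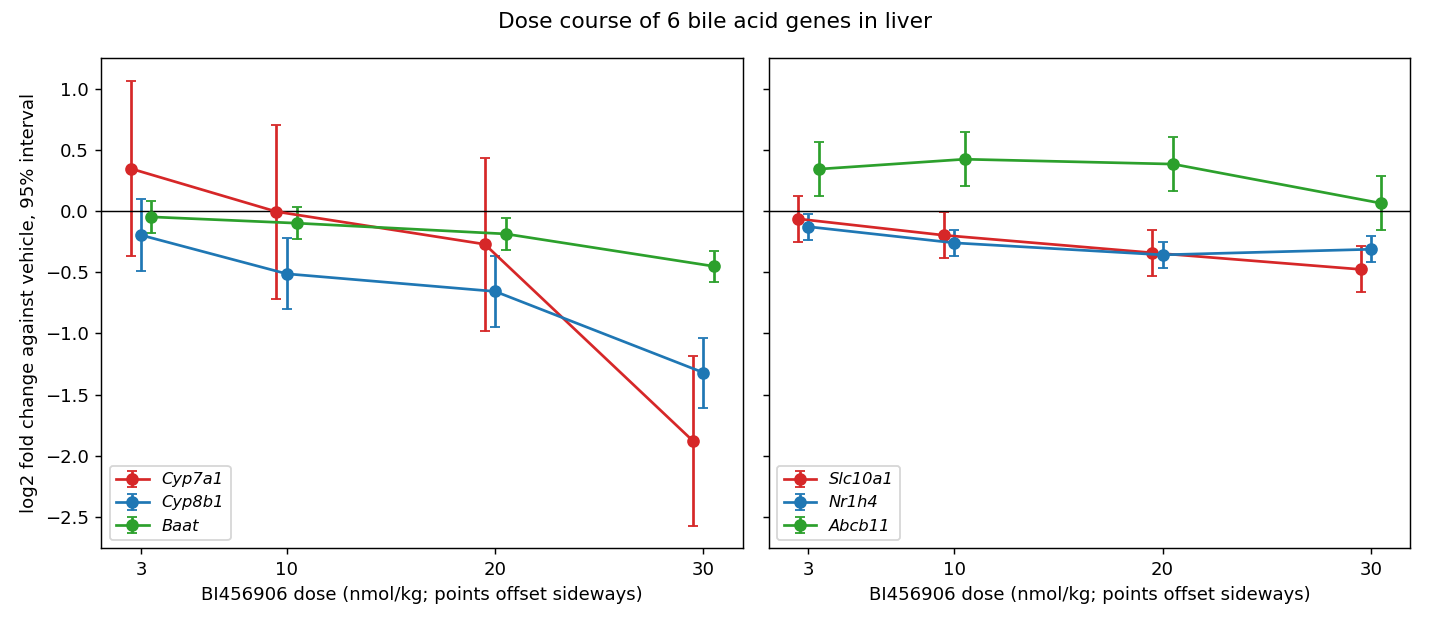
Dose course of 6 genes with BI456906. The horizontal axis is the dose in nmol/kg and the vertical axis the log2 fold change against vehicle in liver, with 95% intervals from limma/voom. Cyp8b1 lies below 0 with its whole interval at 10, 20 and 30 nmol/kg, Cyp7a1 at 30 nmol/kg alone, and Abcb11 lies above 0 from 3 to 20 nmol/kg and spans 0 at 30 nmol/kg.

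On the alternative route Cyp27a1 rose with semaglutide and did not pass against vehicle at any single dose of BI456906. Its slope over the doses of BI456906 was negative and passed, as given above, a call kept under all 43 other settings. Cyp7b1 did not differ between the compounds at the threshold. Cyp27a1, at 1:74713574-74737892 (GRCm38, plus strand), encodes the mitochondrial sterol hydroxylase that opens this route. Its levels were 393 to 493 TPM (median 444) with vehicle, 582 to 686 TPM (median 627) with semaglutide 20 nmol/kg and 556 to 713 TPM (median 598) with semaglutide 100 nmol/kg. With semaglutide all 12 mice were above all 6 vehicle mice, and Cyp27a1 rose by 0.40 ± 0.11 (SE, adjusted p = 0.00392) and 0.39 ± 0.11 (SE, adjusted p = 0.00464). With BI456906 the levels were 452 to 632 TPM (median 501), 358 to 578 TPM (median 486), 367 to 503 TPM (median 372) and 279 to 468 TPM (median 424) from the lowest to the highest dose. They overlapped those of vehicle at every dose, and the log2 fold change of -0.25 ± 0.11 (SE, adjusted p = 0.0513) at 30 nmol/kg lay at the edge of the threshold, which it met under 7 of 23 other settings.

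The difference in Cyp27a1 between the compounds was present at a matched dose. The match is in nmol/kg alone. At that dose the study reported higher plasma levels of BI456906 than of semaglutide near the end of treatment. It also reported a lower potency of BI456906 at the GLP-1R. At 20 nmol/kg all 6 mice given BI456906 were below all 6 given semaglutide, and the log2 difference was -0.66 ± 0.11 (SE, adjusted p = 0.00037). This was 1 of 2 differences among the 10 genes that passed at the matched dose, the other being Nr1h4 at -0.23 ± 0.05 (SE, adjusted p = 0.00805), where 2.42% of all genes passed. The largest intervals at this dose were those of Cyp7b1, -0.49 (95% interval -1.28 to 0.31, adjusted p = 0.632), Nr0b2, -0.56 (95% interval -1.55 to 0.44, adjusted p = 0.667), and Cyp7a1, -0.26 (95% interval -0.97 to 0.45, adjusted p = 0.812), so that sizeable differences of these 3 genes between the compounds could not be seen here.

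Cyp7b1, at 3:18071950-18243338 (GRCm38, minus strand), encodes the oxysterol hydroxylase of the same route and varied most among mice of a group, with a median coefficient of variation of 57.6% over the 7 groups. Its levels were 13.5 to 50.1 TPM (median 22.1) with vehicle, 27.3 to 61.1 TPM (median 37.5) with BI456906 30 nmol/kg and 29.9 to 129 TPM (median 48.5) with semaglutide 100 nmol/kg. In the other groups the medians were 39.2, 25.96 and 34.4 TPM with BI456906 3, 10 and 20 nmol/kg and 40.3 TPM with semaglutide 20 nmol/kg. The groups overlapped in each case. Cyp7b1 rose with semaglutide 100 nmol/kg, by 1.02 ± 0.39 (SE, adjusted p = 0.0304), a call lost under 6 of 23 other settings. These were the fit without a filter and those without vehicle replicate 43, 45 or 46 or semaglutide replicate 80 or 81, the last being the highest of its group at 129 TPM (log2 fold change without it 0.76, adjusted p = 0.115). With BI456906 30 nmol/kg the log2 fold change was 0.59 (95% interval -0.20 to 1.38, adjusted p = 0.196). It passed when libraries were weighted by quality (0.97, adjusted p = 0.00998). With semaglutide 20 nmol/kg it was 0.92 (adjusted p = 0.0519), which passed under 11 of 23 other settings. In the annotation (GENCODE M21) the small nuclear RNA gene Gm23686 lies within Cyp7b1 on the same strand. It reached 3.1 TPM in liver, and its part in the Cyp7b1 reads was not tested.

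Transcripts of the routes can be set beside each other within each library as a ratio of TPM, given here as a description with no test. Such ratios do not measure flux through the routes. Cyp7a1 is the denominator of all 3, so its low values at BI456906 30 nmol/kg raise them. The mean of Cyp27a1 itself at that dose was 0.900 of that with vehicle. The ratio of Cyp27a1 to Cyp7a1 had a median of 8.95 with vehicle (range 5.59 to 14.5) and of 24.96 with BI456906 30 nmol/kg (range 16.8 to 36.9). For Cyp7b1 to Cyp7a1 the medians were 0.518 with vehicle (range 0.294 to 0.647) and 2.78 at 30 nmol/kg (range 1.64 to 3.67). In both ratios the 6 mice at 30 nmol/kg were above the 6 vehicle mice. The ratio of Cyp8b1 to Cyp7a1 had medians of 12.4 with vehicle, 6.48 at 10 nmol/kg and 21.2 at 30 nmol/kg, with ranges of 8.38 to 20.98, 5.31 to 22.5 and 9.06 to 25.3 that overlapped. With semaglutide 100 nmol/kg the ranges of all 3 ratios reached beyond the vehicle range at both ends, and the lowest values came from replicate 84, with 174 TPM of Cyp7a1.

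**Figure D3:**
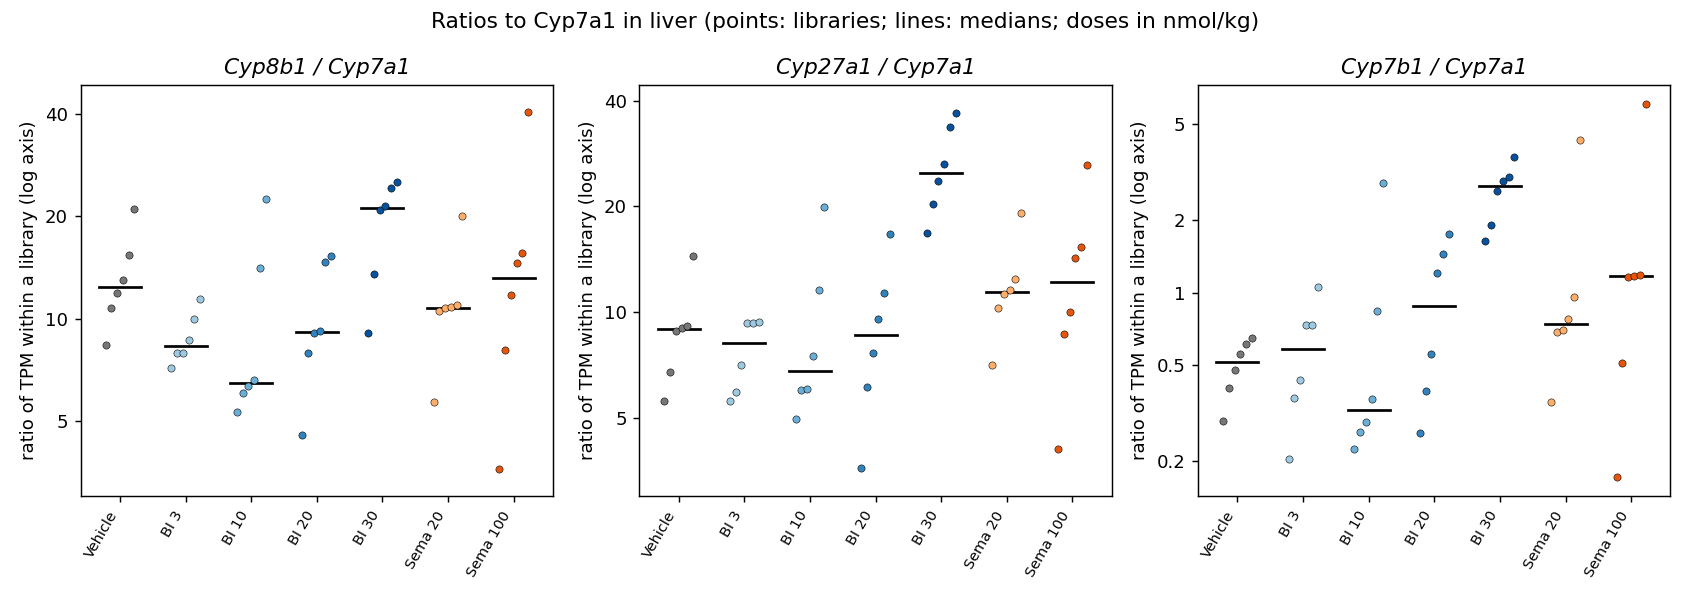
Ratios of Cyp8b1, Cyp27a1 and Cyp7b1 to Cyp7a1 within each liver library. The vertical axis is the ratio of TPM on a log axis, the horizontal axis the group (doses in nmol/kg), points are libraries and lines are medians of 6 mice. At BI456906 30 nmol/kg the Cyp27a1 ratio is 16.8 to 36.9 and the Cyp7b1 ratio 1.64 to 3.67, above the vehicle ranges.

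Of the conjugating enzymes, Baat, at 4:49489422-49506557 (GRCm38, minus strand), which joins bile acids to taurine or glycine, showed little spread among mice. Its levels were 160.5 to 192 TPM (median 183) with vehicle, 146 to 195 TPM (median 169) with BI456906 20 nmol/kg and 128 to 144 TPM (median 139) at 30 nmol/kg. The 30 nmol/kg mice were all below the mice of vehicle, of 20 nmol/kg and of both semaglutide groups. In the other groups the medians were 181 and 179 TPM with BI456906 3 and 10 nmol/kg and 179 and 184 TPM with semaglutide 20 and 100 nmol/kg. Baat fell at 30 nmol/kg, with a fitted log2 change of -0.45 ± 0.06 (SE, adjusted p = 1.49e-07). It fell at 20 nmol/kg as well, with -0.18 ± 0.06 (SE, adjusted p = 0.0167), a call lost under 7 of 23 other settings, among them without vehicle replicate 47 or replicate 65 or 66 of the 20 nmol/kg group. From 20 to 30 nmol/kg the fall was -0.27 ± 0.06 (SE, adjusted p = 0.0173), and it was lost without replicate 61 (adjusted p = 0.0596) or 63 (adjusted p = 0.076) of the 20 nmol/kg group. With semaglutide 100 nmol/kg it was -0.05 (95% interval -0.18 to 0.08, adjusted p = 0.52).

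Slc27a5, at 7:12988346-12998192 (GRCm38, minus strand), encodes the bile acid ligase that precedes BAAT. Its levels overlapped between vehicle, at 568 to 766 TPM (median 638), and BI456906 30 nmol/kg, at 537 to 664 TPM (median 603). The log2 fold change was -0.23 ± 0.08 (SE, adjusted p = 0.015), the smallest of the 6 that passed, and the call was lost under 7 of 23 other settings, among them without vehicle replicate 47 (adjusted p = 0.0824) or 48 (adjusted p = 0.0532), without replicate 71 of the 30 nmol/kg group (adjusted p = 0.0698) and with limma on log2(TPM + 1), where it was -0.14 (adjusted p = 0.112). In the other groups its medians were 700.5, 686 and 676 TPM with BI456906 3, 10 and 20 nmol/kg and 654 and 685 TPM with semaglutide 20 and 100 nmol/kg, and none of these groups passed against vehicle.

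Slc10a1, at 12:80953183-80968705 (GRCm38, minus strand), encodes the sodium-dependent carrier of the sinusoidal membrane. Its levels were 405 to 611 TPM (median 537) with vehicle and, with BI456906, 452 to 552 TPM (median 529) at 3, 483 to 505 TPM (median 488) at 10, 415 to 475 TPM (median 434) at 20 and 378 to 411 TPM (median 395) at 30 nmol/kg. At 30 nmol/kg 5 of the 6 vehicle mice were above every mouse of that group, and vehicle replicate 45 with 405 TPM was within its range. Slc10a1 fell at 20 nmol/kg, with a fitted log2 change of -0.34 ± 0.09 (SE, adjusted p = 0.00294), and at 30 nmol/kg, with -0.47 ± 0.09 (SE, adjusted p = 3.84e-05). The first call was lost when libraries were weighted by quality (-0.19, adjusted p = 0.0568). Its medians with semaglutide were 519 TPM at 20 and 517 TPM at 100 nmol/kg. With semaglutide 100 nmol/kg the value was -0.11 (95% interval -0.30 to 0.08, adjusted p = 0.336).

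Abcb11, at 2:69238282-69342616 (GRCm38, minus strand), encodes the canalicular bile salt export pump and was the only one of the 10 genes that rose with BI456906. Its levels were 116 to 162 TPM (median 134) with vehicle and, with BI456906, 149 to 168 TPM (median 155) at 3, 143 to 210.3 TPM (median 163.5) at 10, 139 to 178 TPM (median 161) at 20 and 101 to 162 TPM (median 122) at 30 nmol/kg. With semaglutide they were 160.4 to 198 TPM (median 168) at 20 and 121 to 192 TPM (median 181) at 100 nmol/kg. It rose at 3, 10 and 20 nmol/kg, by 0.35 (adjusted p = 0.0313), 0.43 (adjusted p = 0.00209) and 0.39 (adjusted p = 0.00369), and at 30 nmol/kg the value was 0.07 (95% interval -0.15 to 0.29, adjusted p = 0.616). The rise at 3 nmol/kg was lost under 11 of 23 other settings, among them without vehicle replicate 43, 45, 46 or 48 or without replicate 51 or 53 of the dose. That at 20 nmol/kg was lost with limma on log2(TPM + 1) (0.24, adjusted p = 0.0574) and on log2(TPM + 0.1). From 20 to 30 nmol/kg the difference was -0.32 (adjusted p = 0.067), which passed under 5 other settings. With semaglutide it rose at 20 nmol/kg by 0.49 ± 0.11 (SE, adjusted p = 0.00042) and at 100 nmol/kg by 0.51 ± 0.11 (SE, adjusted p = 0.000206). In the same annotation Abcb11 overlaps the antisense gene Gm13613, which did not exceed 0.03 TPM in any liver library.

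At the lower doses few of the 10 genes passed. At 20 nmol/kg of BI456906 4 fell (Cyp8b1, Nr1h4, Slc10a1 and Baat) and 1 rose (Abcb11), where 45.9% of all genes passed. At 10 nmol/kg 2 fell (Cyp8b1 and Nr1h4) and Abcb11 rose, against 37.5% of all genes, and at 3 nmol/kg Abcb11 alone passed, against 13.4%. With semaglutide 100 nmol/kg 3 rose (Abcb11, Cyp27a1 and Cyp7b1) and none fell, against 48.2% of all genes, and at 20 nmol/kg 2 rose (Abcb11 and Cyp27a1) and none fell, against 46.5%. The shares of the 10 genes that passed against vehicle were thus near or below the background at each dose.

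Nr1h4, at 10:89454234-89533585 (GRCm38, minus strand), encodes the bile acid receptor FXR. Its levels were 107 to 125 TPM (median 116) with vehicle and, with BI456906, 103 to 116 TPM (median 108) at 3, 92.9 to 112 TPM (median 105) at 10, 87.8 to 102 TPM (median 96.8) at 20 and 92.9 to 101 TPM (median 95.9) at 30 nmol/kg. At 20 and 30 nmol/kg all treated mice were below all vehicle mice. Nr1h4 fell at 10, 20 and 30 nmol/kg, with fitted log2 changes of -0.26 (adjusted p = 0.000158), -0.36 (adjusted p = 6.76e-07) and -0.31 (adjusted p = 3.58e-06), and its values at 20 and 30 nmol/kg differed by 0.05 (95% interval -0.06 to 0.15, adjusted p = 0.624). Its mean TPM at 30 nmol/kg was 0.830 of that with vehicle, beside 0.292 for Cyp7a1 and 0.439 for Cyp8b1. With semaglutide 20 nmol/kg the value was -0.12 (adjusted p = 0.0513), which passed under 4 of 23 other settings, and with 100 nmol/kg -0.09 (adjusted p = 0.175).

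Nr0b2, at 4:133553376-133556536 (GRCm38, plus strand), encodes the corepressor SHP, and it passed in none of the 12 comparisons with limma/voom over all groups. It was lower with BI456906 30 than with semaglutide 20 nmol/kg when those 2 groups were fitted alone (-0.91, adjusted p = 0.0239, beside 0.243 over all groups). Its levels were 9.55 to 38.9 TPM (median 24.4) with vehicle, 4.10 to 77.1 TPM (median 43.2) with BI456906 20 nmol/kg and 16.4 to 29.2 TPM (median 19.5) at 30 nmol/kg. They were 26.2 to 70.5 TPM (median 36.8) with semaglutide 20 nmol/kg and 12.7 to 36.3 TPM (median 21.5) with 100 nmol/kg, and the medians with BI456906 3 and 10 nmol/kg were 26.1 and 33.9 TPM. The mice of a group differed by up to 18.8-fold, at 20 nmol/kg of BI456906, and the groups overlapped. The fitted log2 fold change at 30 nmol/kg was -0.14 (95% interval -1.20 to 0.92, adjusted p = 0.833), and a rise or a fall of 0.9 on the log2 scale lay within that interval. Over the 42 liver libraries the genes were unequally alike. The Pearson correlation of the log2 values, which share libraries and groups, was 0.791 between Cyp8b1 and Baat, 0.586 between Cyp7a1 and Cyp8b1, 0.104 between Cyp7a1 and Nr0b2, 0.0841 between Cyp8b1 and Nr0b2, and -0.255 between Cyp7a1 and Cyp7b1. Cyp7a1 had 0.672 with Baat and 0.639 with Slc10a1. For Nr1h4 the values were 0.503 with Cyp7a1, 0.586 with Cyp8b1, 0.719 with Slc10a1, 0.0466 with Nr0b2 and -0.0628 with Abcb11.

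The compounds were also compared at their highest doses. With BI456906 30 nmol/kg 7 of the 10 were lower than with semaglutide 100 nmol/kg and none was higher, where 9.75% of all genes tested passed in either direction. The 7 were Cyp7a1, Cyp8b1, Cyp27a1, Baat, Slc10a1, Abcb11 and Nr1h4. The same 7 were lower than with semaglutide 20 nmol/kg, where 13.6% of all genes passed. The 2 comparisons share the BI456906 mice. The genes were chosen with earlier results of these data known, so these shares are no test of the set. The log2 differences against semaglutide 100 nmol/kg were -1.24 ± 0.14 (SE, adjusted p = 9.60e-08) for Cyp8b1, -0.64 ± 0.11 (SE, adjusted p = 0.000185) for Cyp27a1 and -0.45 ± 0.11 (SE, adjusted p = 0.0068) for Abcb11. For Slc27a5 the difference was -0.20 (95% interval -0.36 to -0.04, adjusted p = 0.107), for Cyp7b1 -0.43 (95% interval -1.23 to 0.36, adjusted p = 0.541) and for Nr0b2 -0.02 (95% interval -1.10 to 1.05, adjusted p = 0.987). The doses differed, so these differences are between the groups as dosed. From 20 to 30 nmol/kg of BI456906 3 of the 10 fell (Cyp7a1, Cyp8b1 and Baat).

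Counted by mice rather than by the fit, the 6 TPM values at BI456906 30 nmol/kg lay wholly below those of vehicle for 4 genes (Cyp7a1, Cyp8b1, Baat and Nr1h4), where 29.4% of all genes tested had groups apart in either direction. Against semaglutide 100 nmol/kg they lay wholly below for 4 genes (Cyp7a1, Cyp8b1, Cyp27a1 and Baat), where 2.94% of all genes were apart. As the genes were chosen with earlier results known, this contrast of shares is a description. Between semaglutide 100 nmol/kg and vehicle 1 gene, Cyp27a1, was apart, higher with semaglutide, where 17.5% of all genes were apart.

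**Figure D4:**
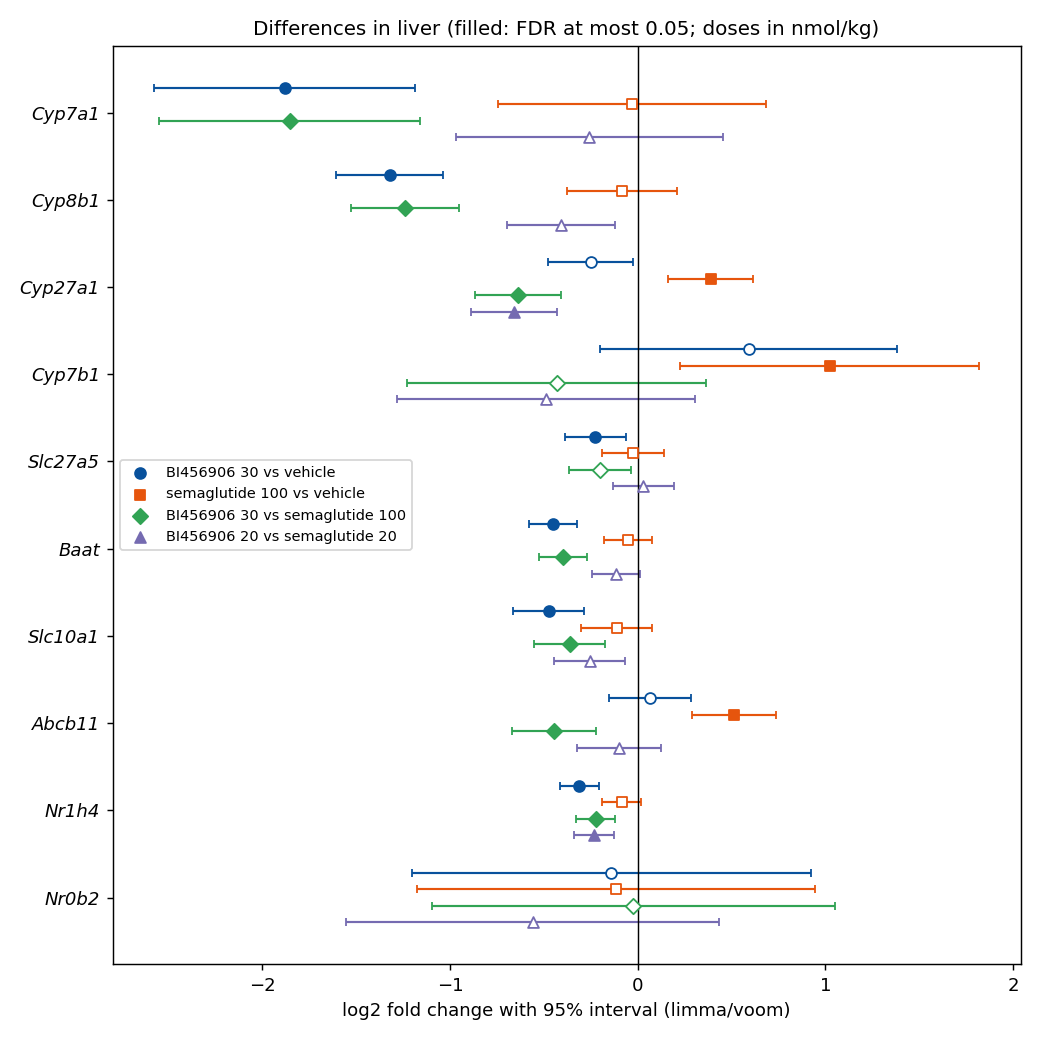
Log2 fold changes of the 10 genes in liver in 4 comparisons. The horizontal axis is the log2 fold change with 95% intervals from limma/voom, rows are genes, filled symbols have an FDR of at most 0.05, and doses are in nmol/kg. For Cyp27a1 semaglutide 100 nmol/kg lies above 0 at 0.39, and BI456906 lies below semaglutide at both matched and highest doses, at -0.66 and -0.64.

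Other genes of the pathway were taken from lists of 14 synthesis genes, 12 transporters, 16 regulators and 15 clock genes, of which 13, 11, 15 and 15 passed the filter on low values. These lists were also chosen with earlier results of these data known. Ch25h, an oxysterol-forming hydroxylase, the basolateral transporter subunit Slc51a and the bile acid receptor gene Gpbar1 did not pass the filter and did not exceed 0.35, 0.02 and 0.11 TPM in any liver library. Of the 13 synthesis genes tested 2 rose and 5 fell at BI456906 30 nmol/kg, a share near the 58.8% of all genes that passed, with a median log2 fold change of -0.15. The counts were 2 and 4 with semaglutide 100 nmol/kg, where 24% of all genes rose and 24.1% fell. Cyp39a1, an oxysterol hydroxylase of a side route, rose from 15.6 ± 1.56 TPM to 48.6 ± 2.93 TPM (SD, n = 6), for a fitted log2 change of 1.56 ± 0.18 (SE, adjusted p = 2.87e-09). Cyp46a1, which makes another oxysterol, fell from 19.2 ± 3.36 TPM to 2.74 ± 0.308 TPM, for a fitted log2 change of -2.89 ± 0.35 (SE, adjusted p = 5.77e-09). Akr1c6 and Scp2 fell as well, with fitted log2 changes of -0.98 (adjusted p = 9.78e-08) and -0.39 (adjusted p = 1.34e-05). Mean levels with vehicle, BI456906 30 nmol/kg and semaglutide 100 nmol/kg were 556, 298 and 430 TPM for Akr1c6. For Scp2 they were 3651, 2866 and 3129 TPM. With semaglutide 100 nmol/kg Scp2 ran from 2902 to 3375 TPM, below the vehicle range of 3443 to 3899 TPM. Cyp39a1 also rose and Cyp46a1 also fell with semaglutide 100 nmol/kg, with fitted log2 changes of 1.27 (adjusted p = 4.72e-07) and -1.64 (adjusted p = 9.95e-06), in a comparison that shares the vehicle mice.

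Of the 11 transporters tested 5 rose and 3 fell at BI456906 30 nmol/kg, beside 28.9% and 29.9% of all genes, with a median log2 fold change of 0.17. For semaglutide 100 nmol/kg the counts were 4 and 2, beside 24% and 24.1% of all genes. Abcc2, the canalicular pump for conjugated organic anions, rose by 1.00 ± 0.11 (SE, adjusted p = 7.78e-10), Atp8b1, a canalicular phospholipid flippase, by 0.92 (adjusted p = 7.74e-09), and Abcg8, a subunit of the canalicular sterol exporter, by 0.67 (adjusted p = 4.22e-06). For Abcc2 the value was 0.69 with limma on log2(TPM + 1). Mean levels with vehicle, BI456906 30 nmol/kg and semaglutide 100 nmol/kg were 111, 181 and 170 TPM for Abcc2. They were 3.2, 6.6 and 6.0 TPM for Atp8b1 and 32.5, 54.1 and 47.6 TPM for Abcg8. Of the 11 transporters 0 were higher and 2 lower with BI456906 30 than with semaglutide 100 nmol/kg, where 9.75% of all genes passed. Abcc3, an exporter of the basolateral membrane, fell from 273 ± 22.9 TPM to 113 ± 23.2 TPM, for a fitted log2 change of -1.18 ± 0.13 (SE, adjusted p = 1.89e-09). With semaglutide 100 nmol/kg Abcc3 fell less, with -0.53 (adjusted p = 0.00138), and the difference between the 2 groups was -0.65 (adjusted p = 0.00111).

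Of the 15 regulators tested 10 rose and none fell at BI456906 30 nmol/kg, where 28.9% of all genes rose and 29.9% fell, with a median log2 fold change of 0.31 beside -0.03 for all genes. Against the same vehicle mice, 10 rose and none fell as well with semaglutide 100 nmol/kg, with a median of 0.30. In that comparison 24% of all genes rose and 24.1% fell. Ppargc1a, a coactivator of the fasting response, rose by 1.92 ± 0.14 (SE, adjusted p = 2.46e-13) and was higher than with semaglutide 100 nmol/kg by 0.73 (adjusted p = 8.63e-05). Prox1, a corepressor known to act with HNF4A on Cyp7a1, rose by 1.33 (adjusted p = 4.40e-10), Hnf4a by 1.07 (adjusted p = 4.31e-09) and Nr5a2 by 0.50 (adjusted p = 7.50e-07). Of these 3, none differed from semaglutide 100 nmol/kg at the threshold, with values of 0.22 (adjusted p = 0.359), 0.23 (adjusted p = 0.289) and 0.15 (adjusted p = 0.234). With library size alone as the scaling, 7 regulators rose and 1 fell, and with limma on log2(TPM + 1) 12 rose and none fell.

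Of the 15 clock genes 7 rose and 2 fell at BI456906 30 nmol/kg, a share near the 58.8% of all genes that passed. The counts were 7 and 2 with semaglutide 100 nmol/kg and 9 and 2 with 20 nmol/kg, where 48.2% and 46.5% of all genes passed. Per1 rose by 1.89 ± 0.19 (SE, adjusted p = 1.13e-10), Clock by 1.10 (adjusted p = 1.99e-10), Arntl by 0.56 (adjusted p = 2.72e-09) and Cry1 by 0.75 (adjusted p = 9.51e-08). The 2 that fell were Dbp, with -1.20 (adjusted p = 1.96e-07), and Bhlhe41, with -0.80 (adjusted p = 0.0036). With limma on log2(TPM + 1) 8 clock genes rose and 1 fell, and Bhlhe41 did not pass (-0.12, adjusted p = 0.239). Between BI456906 30 and semaglutide 100 nmol/kg 4 of the 15 were higher with BI456906, 0 were lower and 11 did not pass. In that comparison 9.75% of all genes passed. Per1 also rose with semaglutide 100 nmol/kg, by 1.12 (adjusted p = 5.47e-06), and was higher with BI456906 30 nmol/kg than with it, by 0.77 (adjusted p = 0.00552). Their part in the fall of Cyp7a1 was not tested.

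**Figure D5:**
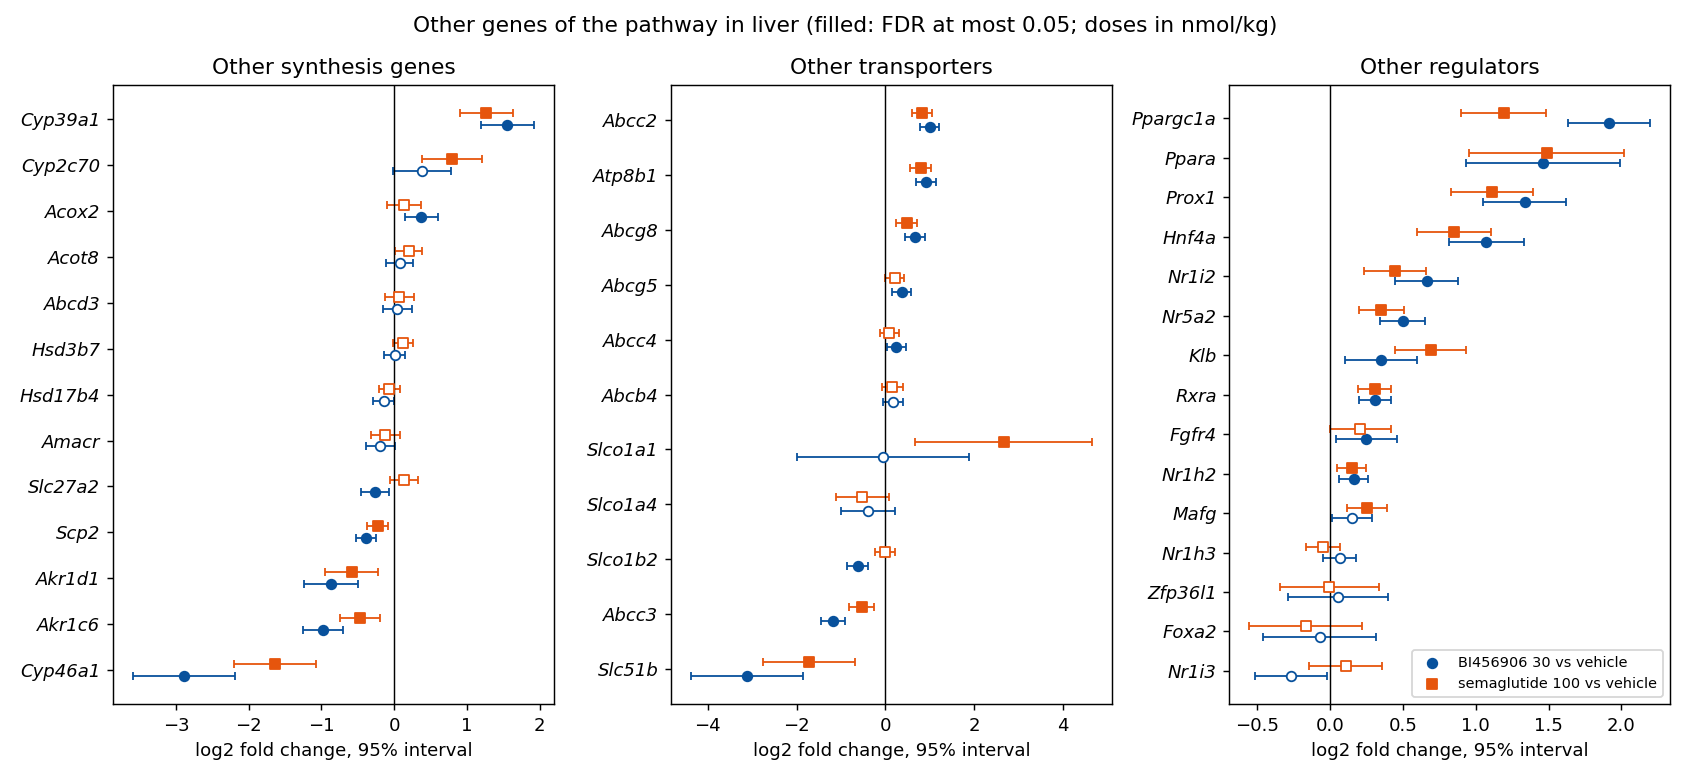
Log2 fold changes of the other synthesis genes, transporters and regulators in liver. The horizontal axis is the log2 fold change against vehicle with 95% intervals from limma/voom for BI456906 30 nmol/kg (circles) and semaglutide 100 nmol/kg (squares), filled symbols have an FDR of at most 0.05, and genes are ordered by the BI456906 value. The 10 regulators that rose lie at the top of their panel, from Ppargc1a at 1.92 downward, and Cyp46a1 lies lowest among the synthesis genes at -2.89.

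The genes most like each of the 10 were computed, and are given for 4 of them, by the Pearson correlation of log2 values over the 42 liver libraries, which share groups and depth, so the values are a description. Cyp7a1 was most like Ptk6 (0.778), S1pr1 (0.77) and Gm11798 (0.76) and most opposite to Leng9 (-0.797). Gm11798 is a processed pseudogene at 4:6260091-6260965, 4647 bases beyond the 3′ end of Cyp7a1 on the same strand. It did not exceed 0.61 TPM in any liver library. Cyp8b1 was most like Csrp3 (0.912), Gm2788 (0.899) and Cyp2f2 (0.892), and most opposite to Phc1 (-0.823). Csrp3 and Gm2788 lie side by side on chromosome 7, and Cyp2f2, a cytochrome P450, had 594 ± 37.4 TPM with vehicle and 151 ± 41.2 TPM with BI456906 30 nmol/kg (SD, n = 6). Cyp7b1 was most like Cadm4 (0.883), Serpine2 (0.876) and Capn8 (0.86) and most opposite to the zinc transporter gene Slc39a4 (-0.873). Nr0b2 had weaker companions, Dusp6 (0.684), Spry4 (0.675) and Taok3 (0.646), with Zc2hc1c the most opposite (-0.673). Dusp6 and Spry4 encode feedback inhibitors of the ERK pathway.

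In eWAT Cyp27a1 was the only one of the 10 genes above 10 TPM in every library, with a median of 86.3 TPM over 42 libraries and a range of 45.9 to 106 TPM. Its mean was 92.9 ± 7.81 TPM with vehicle, 93.1 ± 12.4 TPM with BI456906 30 nmol/kg and 83.1 ± 9.45 TPM with semaglutide 100 nmol/kg (SD, n = 6). The other 9 had medians of 0.06 TPM (Cyp7a1) to 2.71 TPM (Nr1h4). Cyp7a1 held 3 reads or fewer in 13 of the 42 eWAT libraries and Nr0b2 in 29. Slc27a5 reached 47.5 TPM and Slc10a1 37.5 TPM in vehicle replicate 2, and the summed hepatocyte markers reached 5796.39 TPM in eWAT against a median of 154 TPM. The part of these hepatocyte transcripts in the eWAT levels was not tested.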

How the data were processed

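The authors deposited, for liver and eWAT, a table of scaled read counts per gene (a signal, not whole) and a table of TPM. The submitters' processing notes list STAR 2.5.2b, RSEM 1.3.0, featureCounts 1.5.1, FastQC 0.11.5 and the builds mm10 and GRCm38. The study's methods describe stranded poly(A) libraries read from both ends, while the labels describe another kit and single reads. Dividing the deposited signal by each library's step (0.827 to 1.99 in liver) recovered whole reads for 100% of nonzero values (tolerance 0.01), a median of 43179390 reads in liver and of 46475069 in eWAT. Libraries of a group are separate mice, and counting error is included in their spread. As the design assumed counts, limma/voom (limma 3.58.1 and edgeR 4.0.16 in R 4.3.3) was run on the values as deposited, over 42 liver libraries in 7 groups, with TMM, filterByExpr, a pseudocount of 0.5 and Benjamini-Hochberg adjustment over 15964 genes. The edgeR quasi-likelihood test and DESeq2 1.42.0 used recovered reads. Symbols were matched for 48348 of 48794 identifiers. The procedure was also run on simulated data in which few genes changed, in the BI456906 30 nmol/kg group alone. In these data 58.8% of genes passed at that dose, so the simulation is no check of the scaling here.

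Named genes were the 10 followed throughout, the 4 with the smallest FDR at BI456906 30 nmol/kg in each list with those failing the filter, and for 4 genes the 3 with the highest and the 1 with the lowest correlation. In the clock list the 2 that fell were named as well. The genes and lists were chosen with earlier results of these data known. The eWAT levels were not tested.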

Additional observations from a re-analysis of the deposited data

Results flagged for a closer look

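Within the 70 groups of 6 liver libraries formed by 10 genes and 7 treatments, 9 held a value far from the other 5 by Dixon's criterion for the gap over the range, which chance gives to about 1 in 20 groups. Cyp7a1 was 174 TPM in semaglutide 100 nmol/kg replicate 84, against 21.2 to 69.4 TPM in the other mice. Cyp27a1 was 503 TPM in BI456906 20 nmol/kg replicate 65, against 367 to 411 TPM, and the same mouse held 92.3 TPM of Cyp7b1, against 18.6 to 39.1 TPM. Cyp7b1 was 68.1 TPM in BI456906 10 nmol/kg replicate 58 and 131 TPM in semaglutide 20 nmol/kg replicate 73, against 16.3 to 32.2 and 34.1 to 57.6 TPM. Abcb11 was 210 TPM in BI456906 10 nmol/kg replicate 57, 198 TPM in semaglutide 20 nmol/kg replicate 78 and, as a low value, 121 TPM in semaglutide 100 nmol/kg replicate 81. Baat was 201 TPM in semaglutide 20 nmol/kg replicate 74, against 175 to 181 TPM.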

How the results depend on the processing

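Among the refits of the 10 genes in 12 comparisons, 2927 kept their side of the threshold and, where a call was made, its direction, while 40 lost a call, 53 gained one and none reversed a call. Values past the threshold in neither fit changed sign in 146 cases. The falls of Cyp7a1 and Cyp8b1 at 30 nmol/kg passed under all 23 other settings, with log2 fold changes of -2.08 to -1.66 and -1.41 to -1.13. The cause of the changes below was not tested.

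The number of genes passing moved as follows. For BI456906 20 nmol/kg against vehicle it was 5, and 3 with limma on log2(TPM + 1), with log2(TPM + 0.1) and with sample quality weights. For 3 nmol/kg it was 1, and 0 with library size alone, without a filter, with both TPM fits and with only the 2 groups. For semaglutide 20 nmol/kg it was 2, and 4 with library size alone and with at least 10 counts in every library. For the late-step contrast it was 0, and 3 with DESeq2 and with quality weights. Leaving out single mice gave 5 to 7 for BI456906 30 nmol/kg against vehicle, 4 to 6 for 20, 3 to 4 for 10 and 0 to 2 for 3 nmol/kg, 2 to 3 for each semaglutide dose, 7 to 8 against semaglutide 100, 7 against semaglutide 20, 2 for both compounds at 20, 1 to 4 for 30 against 20 nmol/kg, where 1 remained without BI456906 20 nmol/kg replicate 63, 7 for the slope and 0 to 1 for the late step. Medians in place of means moved each of the 140 group levels by less than 1 SD. A mean and a median never lie further apart than that, so this is no check.

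At BI456906 30 nmol/kg 4612 genes passed upward and 4772 downward. The split was 4018 to 5410 with library size alone, where the median of all genes was -0.10, and 4829 to 3678 with log2(TPM + 1), where it was 0.01. No paired analysis was possible because library numbers in the labels are unique. Depth limited no gene of the 10 in liver, and the spread among mice limited Cyp7a1, Cyp7b1 and Nr0b2.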
